A study of Homo sapiens with 6 samples.

Results

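The 53 genes described here encode the proteins that prepare chromosomes for copying and that copy them: the MCM helicase ring, the factors that load and start it, the polymerases and the proteins that work at the moving fork. They were taken by name from a fixed list, which was chosen with earlier results of these data known. All 53 had a row among the 56303 symbols of the count table and passed the filter on low counts that left 18243 genes for testing. Messenger RNA was sequenced from SW480, a human colon adenocarcinoma cell line, carrying either shCtrl, a nonsilencing short hairpin RNA, or shRBM39, a hairpin against RBM39, an RNA-binding protein that takes part in pre-mRNA splicing. There were 3 shCtrl and 3 shRBM39 libraries. Per the study's methods both hairpins were delivered with lentivirus and stable clonal lines were selected with puromycin. Every library thus came from infected, selected cells, and differences between the selected lines and effects of lowering RBM39 cannot be told apart. The labels give the genotype of the control as WT, name no drug or time course, and name 1 shRBM39 and no other hairpin against this gene, so effects of that hairpin and of the loss of its target cannot be told apart. The study describes the 3 libraries of a group as independent replicate experiments but does not say whether each had its own infection, so p-values measure the spread between these experiments and may not cover that between separately made lines.

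In G1 phase the origin recognition complex (ORC) marks the places where copying can start, and CDC6 and CDT1 help it to load rings of MCM2 to MCM7 around the DNA, a step called licensing. Geminin, the product of GMNN, binds CDT1 and blocks further loading once copying has begun. In S phase the kinase CDC7 with DBF4, together with CDC45, the GINS complex and MCM10, turns the loaded ring into a working helicase, and polymerases, a sliding clamp and its loaders follow behind it. Many of these genes are transcribed around the entry to S phase under control of E2F factors. In RNA from whole cultures a larger share of cells in S phase and more messenger RNA per such cell cannot be told apart.

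The libraries held 18042924 to 20428901 counted reads, and mitochondrially encoded genes took 6.90 to 8.22% of them. RBM39 read 441, 448 and 435 CPM (counts scaled to a common library size with edgeR's TMM factors) in shCtrl replicates 1 to 3 and 266, 276 and 292 CPM in shRBM39 replicates 1 to 3. The groups did not overlap, and the log2 fold change was -0.67 (SE 0.04, edgeR adjusted p = 1.24e-16), so the targeted gene was lower in every library labelled shRBM39 and most of its transcript remained. Of 8 markers of colon epithelium, EPCAM, KRT8, KRT18, VIL1 and CDH1 were well expressed, with summed counts over the list of 228109 to 234928 in shCtrl and 248328 to 271955 in shRBM39. KRT20 stood at 1.45 CPM or less in every library, and CDX2, a transcription factor of intestinal identity, averaged 21.7 CPM in shCtrl and 4.95 CPM in shRBM39. The sums were carried by KRT8 and KRT18, which with KRT20 were called higher, while CDX2 (-2.13), CDH17 (-1.34), CDH1 (-0.39) and VIL1 (-0.09, all log2 fold changes) were called lower and EPCAM was not called. PTPRC, the defining leukocyte marker, was at 0 in all 6 libraries, the 4 leukocyte markers summed to 8 to 17 counts in shCtrl and 2 to 9 in shRBM39, 5 fibroblast markers summed to 141 to 153 and 186 to 245 counts, and 3 endothelial markers to 70 to 93 and 125 to 156 counts. Their part in the results was not tested.

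The replication genes were higher in shRBM39 almost throughout. Of 53 members, 50 rose, 1 (ORC2) fell and 2 (CDT1 and ORC4) did not pass the test, with a median log2 fold change of 0.74, or 1.67-fold, against a median of -0.01 over all 18243 genes tested. A large part of the transcriptome differed between the groups, and the counts are read against that. Of all tested genes 59.1% were called at an edgeR adjusted p under 0.05, 29.2% higher and 29.9% lower. At least 2-fold higher and called were 13 members, against 2.36% of all tested genes, and 37 members lay above 0.56, the log2 fold change below which 90% of tested genes fell. The 3 shCtrl and the 3 shRBM39 values did not overlap in 49 members, against 63.3% of tested genes, the exceptions being CDT1, ORC3, ORC4 and POLE2. Together the members took 0.364 to 0.365% of all counts in the shCtrl libraries and 0.594 to 0.607% in the shRBM39 libraries.

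**Figure D1:**
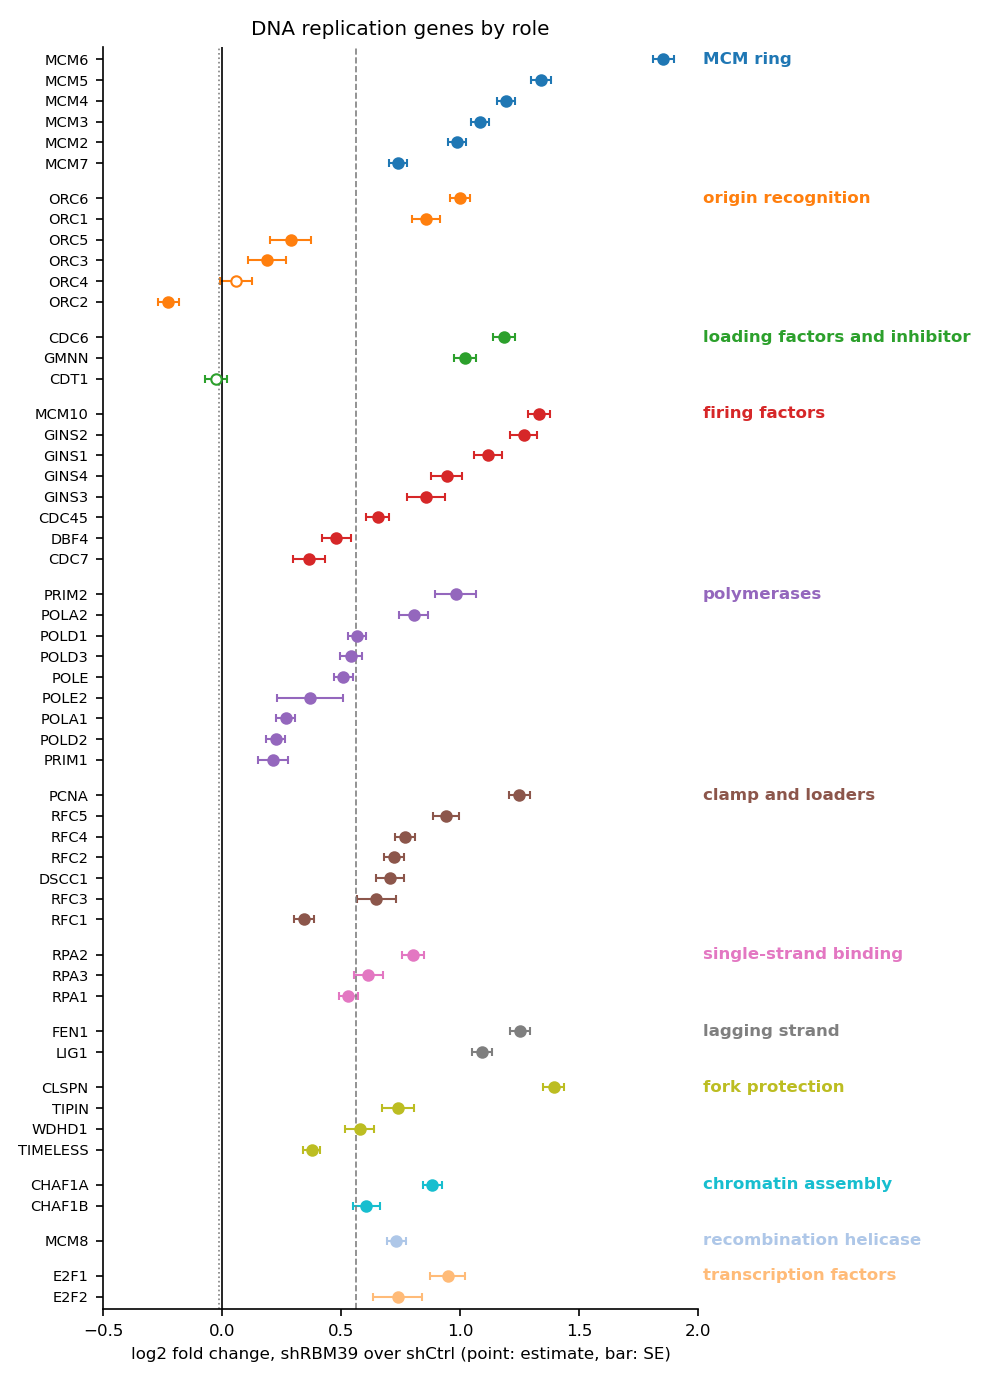
Log2 fold change (x axis, shRBM39 over shCtrl, edgeR estimate with its SE as bar) of the 53 replication genes, one row each, grouped by role. Open points mark the 2 genes that did not pass the test. The dotted line is the median of all tested genes (-0.01) and the dashed line their 90th percentile (0.56). The MCM ring lies at 0.74 to 1.85, the origin recognition genes spread from -0.23 to 0.9999, and the polymerases stay between 0.21 and 0.98.

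The rise was not only that of the helicase ring. Among the 47 members beyond the MCM ring, 44 rose, with a median log2 fold change of 0.72, while the 6 ring subunits all rose with a median of 1.14. Fork genes (clamp and loaders, single-strand binding, lagging strand and fork protection) rose in 16 of 16 cases with a median of 0.73, the 8 firing factors in all 8 with a median of 0.90, and the 9 polymerase subunits in all 9 with a median of 0.51. Licensing genes beyond the ring (ORC, CDC6, CDT1 and GMNN) were the most uneven, with 6 of 9 higher, 1 lower, 2 not called and a median of 0.29. On log2(RPKM + 1) the median was 0.59 for the firing factors, 0.33 for the polymerases, 0.09 for the 6 ORC genes (0.24 in the counts and 0.11 under library totals alone) and 0.54 for E2F1 and E2F2 (0.84 in the counts). On log2(RPKM + 0.1) the medians of the same lists, in that order, were 0.75, 0.38, 0.11 and 0.70. All these medians describe the lists. The genes within a list share the same 6 libraries and are not replicates, and no test was run between lists.

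The 6 subunits of the MCM ring, which unwinds DNA ahead of the fork, took 0.119 to 0.122% of counts in shCtrl and 0.233 to 0.237% in shRBM39. MCM6 (chromosome 2, 135839626 to 135876426, minus strand, GRCh38) had the highest log2 fold change of the 53 genes. Its level was 49.3, 51.2 and 50.9 CPM in shCtrl and 178, 179 and 190.4 CPM in shRBM39. The groups were far apart relative to their spread, and the log2 fold change was 1.85 (SE 0.04, edgeR adjusted p = 1.5e-27), or 3.62-fold.

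MCM5 read 77.1, 73.3 and 71.2 CPM in shCtrl and 191, 189 and 180.4 CPM in shRBM39. MCM4 read 174, 169.6 and 174 CPM and then 407, 384 and 391 CPM. MCM3 read 440.4, 406 and 427 CPM and then 896, 914 and 886 CPM, and it was the most abundant member in every library. In each of these 3 genes the lowest shRBM39 library lay above the highest shCtrl library, with log2 fold changes of 1.34, 1.19 and 1.08 (SE 0.04 each, largest edgeR adjusted p = 1.92e-22).

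MCM2 read 223, 218 and 216 CPM in shCtrl and 440.3, 442 and 419 CPM in shRBM39, a log2 fold change of 0.99 (SE 0.04). MCM7 stood at 219.6, 217 and 215 CPM in shCtrl, beside MCM2, and at 360.2, 364 and 364 CPM in shRBM39, a log2 fold change of 0.74 (SE 0.04, edgeR adjusted p = 1.27e-18). It was thus the least raised subunit, and 8.94% of its exon bases lie opposite exons of AP4M1.

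The subunits therefore rose by unequal amounts. Per length, in reads per kilobase of merged exons scaled by the library total (RPKM), MCM3 averaged 121 ± 4.07 in shCtrl and 236 ± 3.23 in shRBM39 (SD, n = 3 each), while MCM5, the lowest, averaged 10.5 ± 0.35 and 24.4 ± 0.742. The ratio of the highest to the lowest subunit went from 11.6 to 9.67. Orders and ratios per length, here and below, depend on the merged exon length used, 7338 bases for MCM5 and 4118 for MCM6. In CPM, MCM5 stood above MCM6, with means of 73.8 against 50.4 in shCtrl and 187 against 182 in shRBM39. The ratio of MCM6 to MCM3 was 0.106 ± 0.00632 in shCtrl and 0.180 ± 0.00917 in shRBM39. MCM7 stood above MCM2 per length in shCtrl (51.7 against 46.6 RPKM) and below it in shRBM39 (79.1 against 84.7 RPKM), and the rest of the order was the same. MCM8, a related helicase that works in recombination and is no part of the ring, rose by a log2 fold change of 0.73 (SE 0.04), from 90.1 ± 2.63 to 149 ± 2.78 CPM.

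The upstream sequence of MCM6 is shown because its gene had the largest change, beside those of E2F2 and POLA1, which carry the same E2F letters and changed less. Each run is the 250 bases before the RefSeq start (GRCh38.p14), 5′ to 3′ on the gene's strand, and no exon of the count table lies in these windows. Capitals mark the matches to TTTGGCGC or TTTCGCGC on either strand. The MCM6 window holds 4 overlapping matches in 2 runs, with the sense matches beginning 152 and 90 bases before the start. The E2F2 window has 1 sense match, 42 bases before the start, and the POLA1 window 1 antisense match, 137 bases before it.
MCM6, chr2:135876444-135876693, minus strand: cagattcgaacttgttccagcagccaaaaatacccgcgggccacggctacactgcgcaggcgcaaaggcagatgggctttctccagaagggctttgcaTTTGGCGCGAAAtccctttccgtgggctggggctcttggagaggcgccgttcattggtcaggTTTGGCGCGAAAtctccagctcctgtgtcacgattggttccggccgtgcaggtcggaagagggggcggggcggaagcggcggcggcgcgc
E2F2, chr1:23531234-23531483, minus strand: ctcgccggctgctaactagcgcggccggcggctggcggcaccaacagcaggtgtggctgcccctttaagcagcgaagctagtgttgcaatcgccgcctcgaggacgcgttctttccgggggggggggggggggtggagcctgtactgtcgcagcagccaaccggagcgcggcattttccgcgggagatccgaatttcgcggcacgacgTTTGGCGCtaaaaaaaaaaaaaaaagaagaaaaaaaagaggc
POLA1, chrX:24693668-24693917, plus strand: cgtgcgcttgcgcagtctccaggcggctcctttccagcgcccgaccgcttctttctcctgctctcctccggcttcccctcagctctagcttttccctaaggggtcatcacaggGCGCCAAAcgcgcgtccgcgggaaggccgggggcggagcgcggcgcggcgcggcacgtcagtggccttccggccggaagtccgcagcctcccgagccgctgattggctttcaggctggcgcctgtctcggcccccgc

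Over the whole list, 46 of the 53 genes had a promoter entry. Windows were searched on both strands for TTTCCCGC, TTTGGCGC, TTTCGCGC and TTTGCCGC, which can overlap each other, as in MCM6, and 17 of 46 genes (37.0%) held at least 1 of them, against 3.40% of all 27305 genes with an entry. The shorter box CCAAT was present in 27 of 46 genes (58.7%), against 37.0% of all genes. The presence of E2F letters did not follow the size of the change: the 17 genes with a match had a median log2 fold change of 0.74, from -0.03 (CDT1) to 1.85 (MCM6), and the 29 genes without had a median of 0.72, from -0.23 (ORC2) to 1.39 (CLSPN). MCM10, FEN1 and CDC6, all more than 2-fold higher, held none of these letters in their windows. A match describes the reference sequence and is not evidence of binding.

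The 6 ORC genes, whose products form the complex that marks origins, split into a raised pair and 4 that changed little. ORC1 rose from 20.5 ± 1.32 to 37.3 ± 0.833 CPM and ORC6 from 49.0 ± 0.909 to 98.1 ± 0.538 CPM, with log2 fold changes of 0.86 (SE 0.06) and 0.9999 (SE 0.04, edgeR adjusted p = 4.08e-20). ORC6 was just short of a 2-fold rise.

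ORC2 (chromosome 2, 200908973 to 200963680, minus strand) was the only member of the 53 called lower. It read 71.3, 73.3 and 73.8 CPM in shCtrl and 63.6, 64.1 and 59.1 CPM in shRBM39. No shRBM39 library reached the lowest shCtrl library, and the log2 fold change was -0.23 (SE 0.04, edgeR adjusted p = 4.93e-05). ORC2 was lower in every alternative fit and called lower in all of them but the test of changes beyond 0.5 on the log2 scale, and 4.39% of its exon bases lie opposite those of another gene.

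ORC5 read 11.4, 10.9 and 9.74 CPM in shCtrl and 13.4, 11.7 and 13.9 CPM in shRBM39, a log2 fold change of 0.29 (SE 0.09, edgeR adjusted p = 0.00518). ORC3 read 14.7, 14.5 and 12.6 CPM and then 14.5, 16.7 and 16.5 CPM, a log2 fold change of 0.19 (SE 0.08, edgeR adjusted p = 0.0424). ORC4 read 23.6, 22.7 and 23.5 CPM and then 22.8, 22.5 and 27.2 CPM, a log2 fold change of 0.06 (SE 0.07, edgeR adjusted p = 0.478). The ORC3 and ORC4 groups overlapped, and only shRBM39 replicate 3 put the ORC4 mean above the controls (log2 fold change -0.03 without it, edgeR adjusted p = 0.704). ORC4 also turned to -0.07 when counts were scaled by library totals alone, and under that scaling ORC3 (0.07) and ORC5 (0.16) lost their calls. ORC3 was not called either by DESeq2 (adjusted p = 0.111) or without shCtrl replicate 3, shRBM39 replicate 2 or shRBM39 replicate 3 (edgeR adjusted p = 0.23, 0.141 and 0.131).

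Per length the order within ORC changed with this split. ORC2 led in shCtrl at 12.6, 13.2 and 13.2 RPKM, above ORC6 with a mean of 11.9 ± 0.177 and ORC1 with 6.78 ± 0.473. In shRBM39, ORC6 led at 21.8 ± 0.107 RPKM, followed by ORC1 at 11.3 ± 0.236 and ORC2 at 10.2 ± 0.448. ORC3, ORC5 and ORC4 followed in this order in both groups, at 2.59 to 4.12 RPKM in shRBM39.

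Of the genes for the factors that load the ring and for the inhibitor that stops loading, CDC6 and GMNN rose and CDT1 did not pass the test. CDC6, an ATPase that joins ORC to load the ring, read 41.9, 42.9 and 39.9 CPM in shCtrl and 94.4, 97.3 and 91.7 CPM in shRBM39, a log2 fold change of 1.18 (SE 0.05, edgeR adjusted p = 2.06e-21). GMNN, the inhibitor, read 40.4, 44.9 and 40.9 CPM and then 83.9, 85.6 and 86.5 CPM, a log2 fold change of 1.02 (SE 0.05, edgeR adjusted p = 2.36e-19). Neither gene's groups came near each other.

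CDT1 (chromosome 16, 88803213 to 88809258, plus strand), which brings the MCM ring to origins and is the target of geminin, read 66.5, 66.2 and 62.1 CPM in shCtrl and 62.2, 66.6 and 62.8 CPM in shRBM39. The groups overlapped fully, with a log2 fold change of -0.03 (SE 0.05, edgeR adjusted p = 0.649). Scaled by library totals alone, which moves the median of all tested genes to -0.14, CDT1 stood at -0.15 and was called lower (edgeR adjusted p = 0.00492). This change of scaling moves all genes by about the same amount (MCM2 from 0.99 to 0.86), so the shift is not particular to CDT1. Per length, GMNN stood below CDT1 in shCtrl, with ratios of 0.819, 0.914 and 0.886, and above it in shRBM39, with ratios of 1.82, 1.73 and 1.86. The ratio of CDC6 to ORC2, both factors of ring loading, was 0.651 ± 0.0298 in shCtrl and 1.73 ± 0.0395 in shRBM39. These ratios do not depend on how libraries are scaled, since both genes of a ratio come from the same library. Whether a ratio lies above or below 1 depends on the merged exon lengths, while its change between groups does not.

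**Figure D2:**
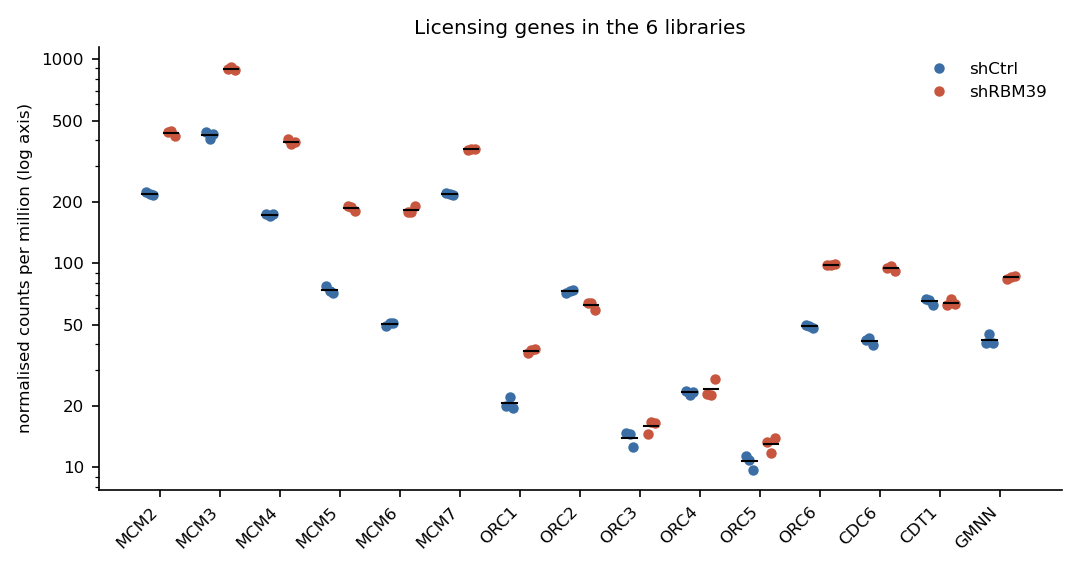
Normalised counts (y axis, CPM, log scale) of the MCM ring, ORC, CDC6, CDT1 and GMNN in each of the 6 libraries, with blue points for shCtrl, red points for shRBM39 and a black line at each mean. All MCM genes, ORC1, ORC6, CDC6 and GMNN separate by group. Within CDT1, ORC3 and ORC4 the groups overlap, and ORC2 is lower in all 3 shRBM39 libraries.

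The 8 firing factors, which convert the loaded ring into an active helicase, all rose. MCM10, which acts as the helicase is activated, read 33.6, 33.0 and 33.0 CPM in shCtrl and 86.1, 84.5 and 80.3 CPM in shRBM39, a log2 fold change of 1.33 (SE 0.05, edgeR adjusted p = 1.8e-22). GINS2, a GINS subunit, read 17.8, 18.8 and 17.8 CPM and then 44.9, 43.9 and 42.2 CPM, a log2 fold change of 1.27 (SE 0.06, edgeR adjusted p = 1.64e-19). The other GINS subunits were close behind, GINS1 at 1.12 (SE 0.06), GINS4 at 0.94 (SE 0.06) and GINS3 at 0.86 (SE 0.08), and the order of the 4 subunits per length was the same in both groups. GINS4 and GINS3 share 23.6% and 10.9% of their exon bases with genes on the opposite strand, and whether the authors' counting used strand is not given in the sources used here. CDC45, the third part of the active helicase, rose by 0.65 (SE 0.05). The kinase CDC7 and its activator DBF4 were the least raised, at 0.36 (SE 0.07) and 0.48 (SE 0.06).

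The polymerase subunits rose less than the fork factors around them by median, 0.51 against 0.73, though the ranges overlapped. In the polymerase alpha-primase complex, which lays down the RNA-DNA primers, the 4 subunits did not move together. PRIM2 rose by a log2 fold change of 0.98 (SE 0.09) from 7.74 ± 0.395 to 15.3 ± 0.598 CPM, and POLA2 by 0.80 (SE 0.06) from 22.1 ± 0.997 to 38.6 ± 2.58 CPM. The catalytic subunits were raised by much less. POLA1, the polymerase, read 93.9, 95.8 and 93.8 CPM in shCtrl and 114, 110.3 and 117 CPM in shRBM39, a log2 fold change of 0.27 (SE 0.04, edgeR adjusted p = 6.95e-07). PRIM1, the primase, read 20.9, 20.6 and 21.3 CPM and then 24.2, 23.3 and 25.3 CPM, a log2 fold change of 0.21 (SE 0.06, edgeR adjusted p = 0.00368). Neither overlapped between groups, but PRIM1 lost its call (0.09, edgeR adjusted p = 0.217) when counts were scaled by library totals alone. The level of PRIM2 per length was 0.193 ± 0.0089 of that of PRIM1 in shCtrl and 0.328 ± 0.00688 in shRBM39.

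The leading-strand and lagging-strand polymerases rose moderately. POLE, the catalytic subunit of polymerase epsilon, rose by a log2 fold change of 0.51 (SE 0.04) and POLD1 and POLD3 of polymerase delta by 0.57 (SE 0.04) and 0.54 (SE 0.05). POLD2, another delta subunit, read 87.7, 86.3 and 87.3 CPM in shCtrl and 104, 101 and 100.2 CPM in shRBM39, a log2 fold change of 0.22 (SE 0.04, edgeR adjusted p = 1.25e-05), so that per length POLD1 passed POLD2 in shRBM39. POLD1 shares 8.77% of its exon bases with another gene on the same strand. POLE2, the second epsilon subunit, was the most weakly measured member. It read 4.52, 4.38 and 3.59 CPM in shCtrl and 4.49, 5.29 and 6.35 CPM in shRBM39. Its groups overlapped at a log2 fold change of 0.37 (SE 0.14, edgeR adjusted p = 0.0225), and the call was lost by DESeq2 (adjusted p = 0.0774), under library totals, and without shCtrl replicate 3 or shRBM39 replicate 3 (0.28 and 0.23, edgeR adjusted p = 0.118 and 0.209).

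At the fork itself the clamp, the enzymes that join lagging-strand fragments and claspin rose more than 2-fold. PCNA, the sliding clamp that holds polymerases on DNA, read 64.9, 60.1 and 62.7 CPM in shCtrl and 149, 144 and 153 CPM in shRBM39, a log2 fold change of 1.25 (SE 0.04, edgeR adjusted p = 8.86e-23). FEN1, the nuclease that trims the flaps of lagging-strand fragments, read 88.1, 80.9 and 81.9 CPM and then 200.6, 202 and 195 CPM, also a log2 fold change of 1.25 (SE 0.04, edgeR adjusted p = 2.67e-23). LIG1, the ligase that seals those fragments, rose by 1.09 (SE 0.04) from 89.3 ± 4.98 to 190.1 ± 6.45 CPM. Clamp, nuclease and ligase thus changed by nearly the same factor, 2.13 to 2.38-fold.

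CLSPN, which couples the fork to the checkpoint kinase ATR and was second only to MCM6, read 65.2, 64.4 and 64.0 CPM in shCtrl and 179.7, 166 and 162 CPM in shRBM39. The shRBM39 libraries spread more than the controls (SD 9.07 against 0.617) and all lay above them, at a log2 fold change of 1.39 (SE 0.04, edgeR adjusted p = 7.04e-24). Other fork protection genes had smaller log2 fold changes: TIPIN rose by 0.74 (SE 0.07), WDHD1 by 0.58 (SE 0.06) and TIMELESS by 0.38 (SE 0.04). TIMELESS and TIPIN form a complex that travels with the fork, and WDHD1 links the helicase to polymerase alpha. TIPIN shares 21.0% of its exon bases with RPL9P25 on the same strand.

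The loaders that place PCNA on DNA, the RFC complex, rose unequally. RFC5 had the largest log2 fold change at 0.94 (SE 0.06), then RFC4 at 0.77 (SE 0.04), RFC2 at 0.72 (SE 0.04), RFC3 at 0.65 (SE 0.08) and RFC1, the large subunit, at 0.34 (SE 0.04). Of the exon bases of RFC5, 10.6% lie opposite exons of other genes. DSCC1, of an alternative loader, rose by 0.70 (SE 0.06). The RPA trimer, which coats single-stranded DNA, rose by 0.80 (RPA2, SE 0.04), 0.61 (RPA3, SE 0.06) and 0.53 (RPA1, SE 0.04). Within RFC and within RPA the order of the subunits per length was the same in both groups.

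**Figure D3:**
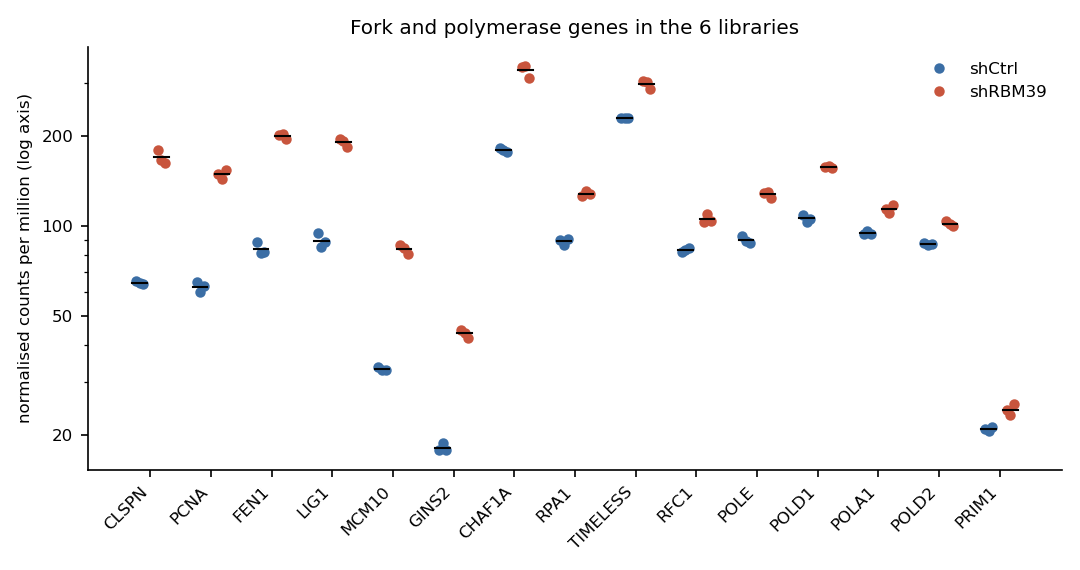
Normalised counts (y axis, CPM, log scale) of 15 fork, firing, chromatin assembly and polymerase genes in each of the 6 libraries, with blue points for shCtrl, red points for shRBM39 and a black line at each mean. CLSPN, PCNA, FEN1, LIG1, MCM10 and GINS2 are separated by more than 2-fold, and POLA1, POLD2 and PRIM1 by 1.16 to 1.20-fold.

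**Figure D4:**
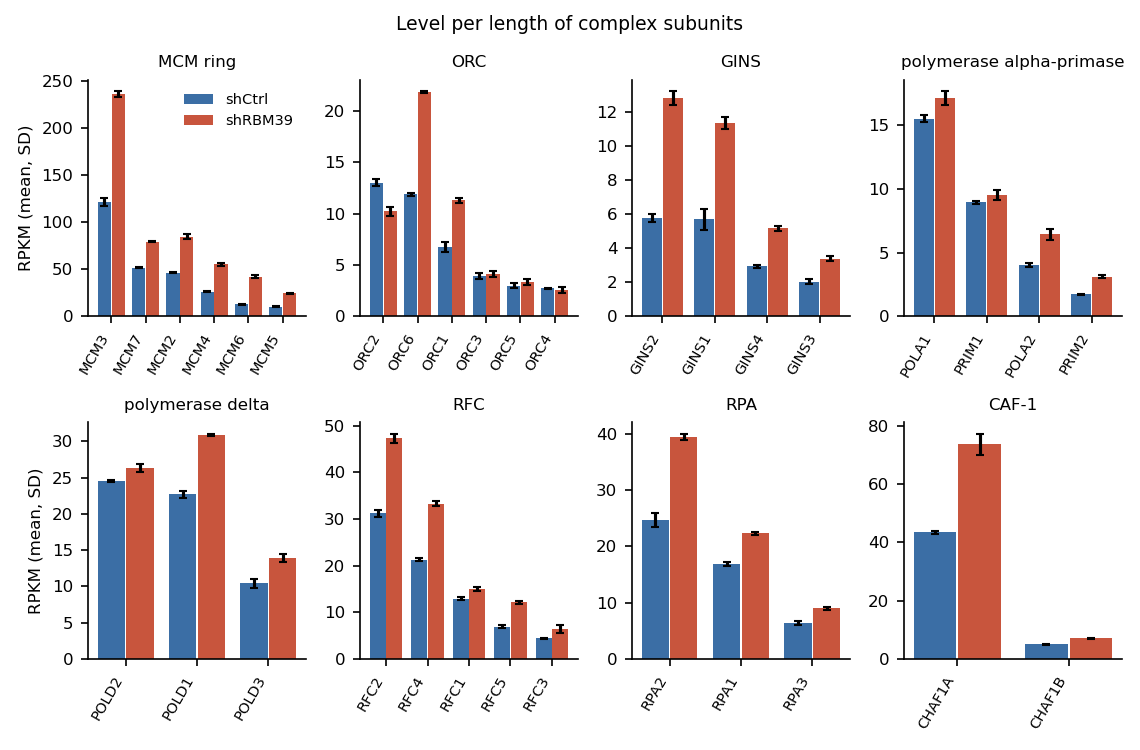
Mean level per length (y axis, RPKM, bars from 0, error bars SD, n = 3 libraries a group) of the subunits of 8 complexes, ordered by their level in shCtrl, with blue bars for shCtrl and red for shRBM39. MCM3 is the highest MCM subunit in both groups, at 121 and 236 RPKM, and in ORC the leading subunit passes from ORC2 to ORC6.

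The CAF-1 chromatin assembly subunits, which place histones on newly copied DNA behind PCNA, both rose. CHAF1A went from 183, 179 and 177 CPM in shCtrl to 339, 342 and 312 CPM in shRBM39, a log2 fold change of 0.88 (SE 0.04, edgeR adjusted p = 1.15e-19), and CHAF1B rose by 0.61 (SE 0.06). The study lists exon 3 of CHAF1A among skipped exons regulated by both RBM39 and MORC2, and CHAF1A also stood out in the authors' splicing table. That table lists 1582 events that passed the authors' own filters on difference and p, so it holds no unchanged exons, and 6 of its records concern 4 of the 53 genes. Its columns name the sample groups only as group 1 and group 2, and no key ties these to shCtrl and shRBM39, so no direction with respect to the knockdown is given and no test was made.

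In CHAF1A, exon 2 of 15 (chromosome 19, 4405912 to 4405962, plus strand, coding) was measured by its inclusion level, the share of transcripts that carry it. The libraries of group 1 gave 0.718, 0.702 and 0.750, and those of group 2 gave 0.357, 0.477 and 0.348. Exon 3 (4408903 to 4409759) was included at 0.699, 0.676 and 0.704 by group 1, compared with 0.414, 0.420 and 0.319 by group 2. The groups did not overlap in either exon. Both records list the same skipping reads, 22, 22 and 18 in group 1 and 31, 37 and 43 in group 2. For that reason both records were read as resting on transcripts that leave out the 2 exons together. Exon 2 has 51 bases and exon 3 has 857, together 908, which leaves a remainder of 2 when divided by 3, so skipping both shifts the reading frame. The sequence of exon 2 is printed as the smaller of the exons left out, with the exon in capitals and 20 intron bases on each side in lower case.
CHAF1A exon 2, chr19:4405892-4405982, plus strand, GRCh38: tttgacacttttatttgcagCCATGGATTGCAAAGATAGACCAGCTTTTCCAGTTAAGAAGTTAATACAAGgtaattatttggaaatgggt

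The other records were smaller or thinner. In GINS3, exon 2 of 3 (chromosome 16, 58403098 to 58403331, 234 bases, a multiple of 3) was included at 0.493, 0.618 and 0.530 by group 1, compared with 0.614, 0.823 and 0.801 by group 2, values that overlap. The smallest library had 67 reads on this event in group 1 and 49 in group 2. ORC1 exon 12 of 17 overlapped between groups, with only 5 reads behind its thinnest library. GINS1 exons 3 and 5 appear as alternatives to each other, with levels of 0, 0.0317 and 0 for group 1 and of 0.134, 0.0825 and 0.168 for group 2, which do not overlap but rest on 3 or fewer reads for exon 3 in every library, beside 14 to 42 for the alternative. A separate record of GINS1 exon 3 as a cassette exon rests on as little as 2 reads in a library, and its levels touch at 0.221. None of MCM6, ORC2, CDT1 or the polymerases has a record.

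**Figure D5:**
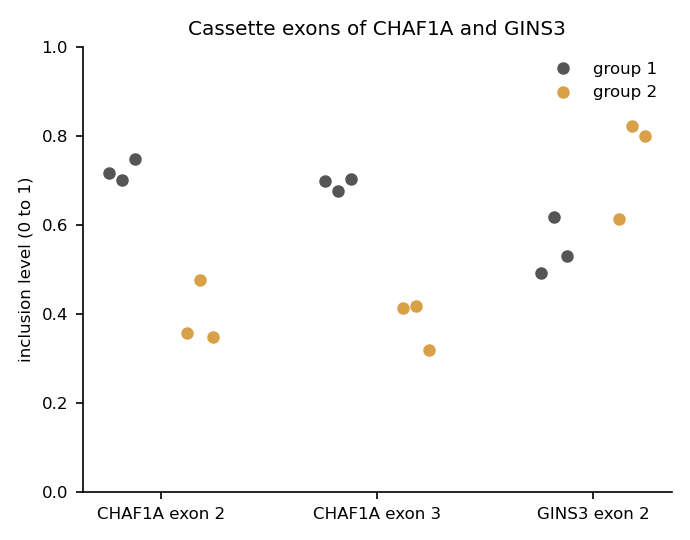
Inclusion level (y axis, 0 to 1) of CHAF1A exons 2 and 3 and of GINS3 exon 2 in each library of the splicing table, with grey points for group 1 and yellow points for group 2 as that table names them. The CHAF1A levels are 0.676 to 0.750 in group 1 and 0.319 to 0.477 in group 2, without overlap, and the GINS3 levels overlap.

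E2F1 and E2F2, transcription factors that drive many S phase genes, rose too. E2F1 read 12.8, 13.2 and 11.1 CPM in shCtrl and 25.1, 22.9 and 23.5 CPM in shRBM39, a log2 fold change of 0.95 (SE 0.07, edgeR adjusted p = 3.44e-13), with no overlap. E2F2 stayed the lower of the pair, going from 6.38 ± 0.765 to 10.6 ± 0.798 CPM at a log2 fold change of 0.74 (SE 0.10). The wider set of 17 genes held E2F, partner and pocket protein genes, with LIN9, LIN37, LIN52, LIN54, MYBL2 and FOXM1 beside them. LIN9, MYBL2 and FOXM1 were called higher, LIN54 was called lower, and LIN37 and LIN52 were not called. The whole set was mixed, with 7 higher, 3 lower and 7 not called and a median of 0.13. The 10 called in either direction were near the share of all tested genes called, 59.1% (29.2% higher and 29.9% lower). Its extremes were E2F8, a repressor of E2F targets, at 1.41 (SE 0.08, edgeR adjusted p = 7.6e-17) and TFDP2, a dimer partner of E2F proteins, at -0.76 (SE 0.06, edgeR adjusted p = 2.12e-13). RBL2, a pocket protein of resting cells, fell by 0.53 on the log2 scale (SE 0.06), and RB1 stood at -0.05 (SE 0.10, edgeR adjusted p = 0.681).

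Replication genes outside the 53 were mostly higher as well. Of 28 such genes, 23 were higher, 1 was lower and 4 were not called, with a median log2 fold change of 0.45. Of all tested genes 29.2% were called higher. PCLAF, a PCNA-binding factor listed under its older symbol KIAA0101, led them at 1.17 (SE 0.08, edgeR adjusted p = 2.48e-15), and POLD4, the small subunit of polymerase delta, was the lowest at -0.46 (SE 0.07, edgeR adjusted p = 2.57e-06). The 8 S phase enzymes and cyclins all rose with a median of 1.04, from TYMS, the thymidylate synthase, at 0.54 (SE 0.04) to CCNE1, cyclin E1, at 1.22 (SE 0.10). The 10 genes of G2 and M phase also all rose, with a median of 0.84, from CDC20 at 0.44 (SE 0.04) to CCNB1, cyclin B1, at 1.07 (SE 0.04). Genes of both S phase and of mitosis thus stood higher in shRBM39, beside the replication genes.

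The size of the change did not follow how abundant, long or GC-rich a member was to any large degree. Across the 53 genes Spearman's rho between the log2 fold change and the shCtrl RPKM was 0.17, with merged exon length it was -0.09 and with exon GC content 0.28. These are correlations across genes that share the same 6 libraries, given as a description. Of the 53 members 23 had at least 1000 counts in every library, and the lowest count of any member in any library was 73, in POLE2.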

How the data were processed

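RNA of SW480 cells, in 3 shCtrl and 3 shRBM39 replicates, was sequenced with a stranded mRNA kit that adds unique identifiers. Per the labels' processing notes, the authors used Trimmomatic 0.36, STAR 2.5.3a, featureCounts of Subread 1.5.1 and edgeR 3.12.1 on GRCh38. The annotation release, strand setting, treatment of multi-mapping reads and collapsing of identifiers are not given in the sources used here. Raw counts for each gene symbol were deposited, with the authors' RPKM values, which equal those counts divided by library total and merged exon length, and an rMATS table whose other values are reads and inclusion levels per exon. Control columns are headed NC in these tables and were taken to be shCtrl because the series has no other control. The columns of the authors' own comparisons (p-values and differences of inclusion) were not used.

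Counts of all genes were filtered (filterByExpr), TMM-scaled and tested with the quasi-likelihood test of edgeR 4.0.16 (R 4.3.3) on group alone, two-sided, with Benjamini-Hochberg adjustment over 18243 genes at 0.05. SE is the log2 fold change divided by the square root of F. The fit was checked on simulated counts in which few genes changed, so that check does not cover scaling where many genes change. Alternatives were DESeq2 1.42.0, limma 3.58.1 on log2(RPKM + 1) and log2(RPKM + 0.1), other scalings and filters, a length and GC correction, a replicate block, a test (glmTreat) of changes beyond 0.5 on the log2 scale, an adjusted p under 0.01 and leaving out each library. The 53 members, the lists and the tests were chosen with earlier results of these data known. Values in every library are given for the MCM ring, the 8 highest and 8 lowest log2 fold changes, and CDT1, GMNN, CDC6, PCNA and E2F1. The other members are given by log2 fold change, and those of them given with levels (such as CHAF1A, LIG1, ORC1 and ORC6) were chosen after their values were seen. In the other lists the highest and lowest gene are named, and RBL2 and RB1 were added after their values were seen. Replicates differed by more than sampling noise (chi-square per degree of freedom 2.11 to 4.21), and the biological coefficient of variation was 0.035.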

Additional observations from a re-analysis of the deposited data

How the results depend on the processing

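Under library totals alone and in both RPKM fits, 46 members were called higher and 2 lower, against 50 and 1 in the TMM-scaled edgeR fit. Without any 1 library 49 to 51 members were called in either direction. In the alternatives that number was 48 to 52 of 53, with 1 exception. The test of changes beyond 0.5 on the log2 scale called 32 members, all higher. It called 8 of 28 other replication genes and 3 of 17 genes of the wider E2F set, against 2232 of all 18243 genes tested. The median log2 fold change of all members was 0.71 under upper-quartile scaling, 0.61 under library totals alone, 0.57 on log2(RPKM + 1) and 0.61 on log2(RPKM + 0.1), and 0.74 to 0.76 without any 1 library (0.735 to 0.757). Library totals moved the median of all genes from -0.01 to -0.14 and the share of called genes that were higher from 49.4% to 33.9% (33.6% in both RPKM fits). ORC4 turned to -0.066 under library totals, -0.053 on log2(RPKM + 1) and -0.071 on log2(RPKM + 0.1), and lay between -0.033 (without shRBM39 replicate 3) and 0.11 without any 1 library, never called, while the length and GC correction called it higher (0.16, edgeR adjusted p = 0.0281). CDT1 was also called lower on log2(RPKM + 1) and log2(RPKM + 0.1) (limma adjusted p = 0.0181 and 0.0184). Both library totals and RPKM leave out the TMM factors, which were 1.03 to 1.05 in shCtrl and 0.955 to 0.960 in shRBM39. Scaling by library totals alone thus lowers the log2 fold changes of all genes by about the same amount. Other sources of these changes were not tested. Besides ORC3, POLE2, ORC5, PRIM1, CDT1 and ORC4, no member changed its call in any alternative other than the test of changes beyond 0.5.

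Replicate numbers are shared by the groups, but deviations of same-numbered libraries correlated at only 0.00612, -0.0282 and 0.000114, so the numbers were not taken to pair them. A replicate block called 51 members, as without it, and changed no member's call.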
